A study of Sus scrofa with 18 samples.

Results

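The genes described here are antiviral effectors that interferon switches on, measured in alveolar macrophages of the pig, phagocytes that live on the lung's inner surface. Members were taken by gene name from a list of 44 names, and 42 of them were found among the 30686 rows of the deposited count table. IFIT5 and SAMD9 were not found by name. Of the 42 genes, 40 had enough counts to be tested, alongside 13592 tested genes in all. XAF1 was listed at 0 counts in all 18 libraries and HELZ2 had 0 to 3 counts per library, so neither was tested. The whole annotated span of XAF1 (15025 bases) is shared with FBXO39 and with C12H17orf100, so its 0 counts need not mean that it was silent. Macrophages from healthy Danish Landrace-Yorkshire pigs were kept ex vivo and treated for 24 h before RNA-seq of total RNA. The 6 treatments were no treatment (control), poly I:C (a synthetic double-stranded RNA that imitates a viral replication product), Bacillus subtilis, Enterococcus faecium, poly I:C with B. subtilis, and poly I:C with E. faecium. Each treatment had 3 libraries, labelled pig 1, pig 2 and pig 3. The sources used here give no doses and do not say whether the bacteria were live.

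Double-stranded RNA is sensed by TLR3 in endosomes and by RIG-I and MDA5 in the cytosol, and this leads to the release of interferon beta. Interferon acts back on the cells through the receptor chains IFNAR1 and IFNAR2, and a transcription complex that contains STAT2 and IRF9 then switches on interferon-stimulated genes. Their products act at separate steps of a viral life cycle: IFITM proteins at membrane fusion, MX proteins on incoming nucleocapsids, OAS and IFIT proteins on viral RNA, viperin and SAMHD1 on nucleotides, BST2 on budding virions, and guanylate-binding proteins on the vacuoles of intracellular microbes. ISG15 is a small protein that HERC5 couples to other proteins and USP18 takes off again.

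Library totals, in units of 1000000 counts, ran from 16.3 to 27.3, and the macrophage markers were detected in every library, with a summed level of 3833 to 8329 CPM (counts per 1000000 counts). FABP4, which marks this cell type, was low at 0.827 to 5.86 CPM. Of the lists for other cells, MPO (neutrophils) and CDH5 (endothelium) were at 0 in every library, and KRT18, COL3A1 and MS4A1 stayed under 1 CPM. Other genes of these lists were present in every library: EPCAM of the epithelial list at 27.5 to 389 CPM, NKG7 of the T and NK cell list at 195 to 476 CPM, CSF3R and S100A12 of the neutrophil list at 21.1 to 110.3 and 547 to 3266 CPM, and JCHAIN of the B cell list at 382 to 1776 CPM. In bulk RNA, fewer cells of a type and less RNA per cell cannot be told apart. The pig numbers did not group the libraries. A search over 7776 groupings with 12280 genes, leaving out the members and the interferon pathway lists, found 3 sets of 6 libraries, 1 per treatment, which held 69.5% of the variance within treatments, against 57.9% for the next best grouping and 20.8% for the pig numbers. Set A holds pig 1 of control, poly I:C and B. subtilis with poly I:C, and pig 3 of the other treatments. Set B holds pig 2 of control, poly I:C, E. faecium and B. subtilis with poly I:C, and pig 1 of B. subtilis and of E. faecium with poly I:C. Set C holds pig 3 of control, poly I:C and B. subtilis with poly I:C, pig 1 of E. faecium, and pig 2 of B. subtilis and of E. faecium with poly I:C. The set went against the pig number in 8 libraries. What the sets are is not given by the labels, so the tests compare treatments without them unless a set block is named. The sets were chosen to hold the most variance within treatments in these same libraries. Adjusted p-values with a set block may therefore be too low. Levels below are CPM scaled by TMM factors, with 3 values always in the order of sets A, B and C.

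With poly I:C, all 40 tested members rose, whereas 12.9% of all tested genes did. UBA7, 1 of the 40, passed the count filter only through libraries with poly I:C, so its rise is no separate support. Their median log2 fold change was 2.64, against -0.01 over all tested genes. The change ran from 0.71 for PLSCR1 to 6.64 for OASL, and edgeR adjusted p-values lay between 1.17e-05 and 0.0445. In 39 members the 3 poly I:C libraries lay above the 3 control libraries, a pattern that 19.4% of all tested genes showed; the exception was UBA7. The members took 0.375% to 1.08% of all counts in control and 3.74% to 4.97% with poly I:C. Scaling by library totals alone put the median change of all genes at -0.54, and 36 members then rose (7% of all tested genes), all but BST2, LAP3, MX2 and PLSCR1. The summed level of the plasmacytoid dendritic cell list, a cell type known for releasing interferon, was 8.81 to 19.9 CPM in control and 37.2 to 68.5 CPM with poly I:C. TCF4 made up most of it, SPIB and IL3RA reached at most 1.85 and 1.07 CPM in any library, and the other names of the list were not found by name. The part of these markers in the rise was not tested.

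**Figure D1:**
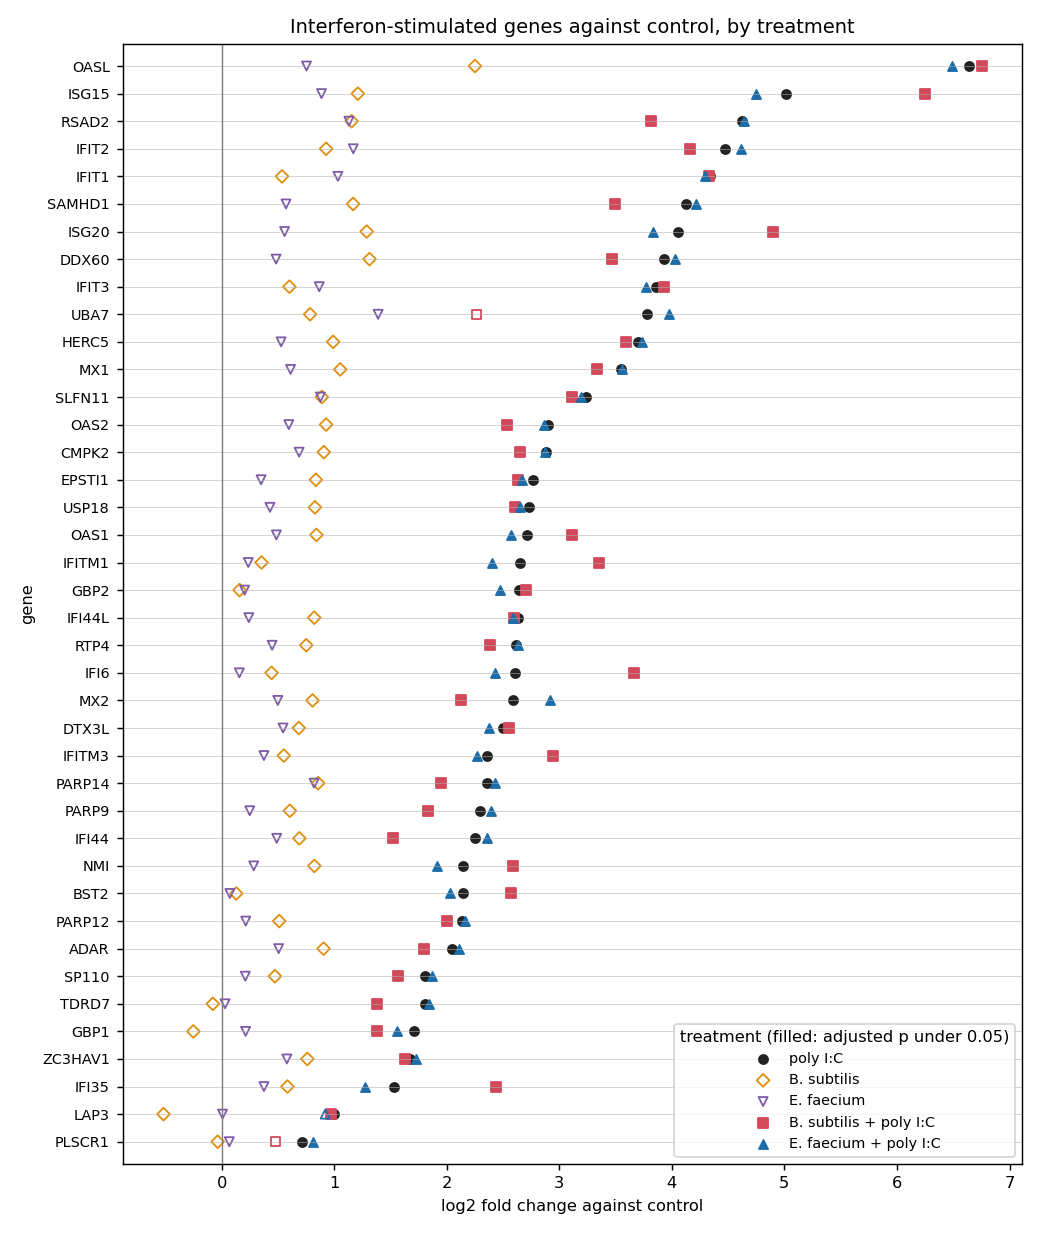
log2 fold change against control (horizontal axis) of the 40 tested genes (rows, ordered by their change with poly I:C) for 5 treatments; filled symbols have an edgeR adjusted p under 0.05. The poly I:C symbols are filled for all 40 genes and lie between 0.71 and 6.64, while the symbols of either bacterium alone are all open.

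By family, the change with poly I:C was highest for IFIT (median log2 fold change 4.34 over 3 genes), followed by MX (3.07, 2 genes), OAS (2.90, 3 genes), IFITM (2.50, 2 genes), PARP (2.30, 3 genes) and GBP (2.18, 2 genes). Members of one family differed little in IFIT (3.86 to 4.47) and PARP (2.14 to 2.35), and most in OAS (2.71 to 6.64). The family differences were not tested. The range of the 3 IFIT members found by name does not overlap those of MX, IFITM, PARP and GBP. It would overlap that of MX (2.59 to 3.55) if the row LOC100151816 were counted. That row, with the RefSeq synonym IFIT5, rose by 2.92, which would also widen the IFIT range.

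Of the IFIT proteins, IFIT1 binds viral RNA that lacks the host's cap methylation and blocks its translation. The genes lie side by side on Sscrofa11.1 chromosome 14, 101193421 to 101204292 (IFIT2), 101214730 to 101225169 (IFIT3) and 101237403 to 101249486 (IFIT1), all within the annotated span of LIPA, and the counting is not stated to use strand. IFIT1 was at 51.8, 279 and 89.5 CPM in control and 3659, 2005 and 2858 CPM with poly I:C, a 20.3-fold rise (log2 fold change 4.34 ± 0.68 SE, edgeR adjusted p = 0.000377). IFIT2 was at 27.7, 262 and 85.8 CPM in control and 2502, 2598 and 3213 CPM with poly I:C (log2 fold change 4.47 ± 0.86 SE, edgeR adjusted p = 0.0016). IFIT3 was at 167, 422 and 201 CPM in control and 4606, 3275 and 3603 CPM with poly I:C (log2 fold change 3.86 ± 0.50 SE, edgeR adjusted p = 7.90e-05). For each of the 3 genes the control of set B was the highest control, and no control library reached any poly I:C library. The row LOC100151816, which RefSeq lists with the synonym IFIT5, is no member; it was at 25.9, 108 and 34.2 CPM in control and 277, 486 and 515 CPM with poly I:C (log2 fold change 2.92 ± 0.64 SE, edgeR adjusted p = 0.00398).

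MX1 and MX2 encode dynamin-like GTPases that trap incoming viral nucleocapsids. They are neighbours on chromosome 13, 204798633 to 204821612 (MX2) and 204843049 to 204868927 (MX1), 21.4 kb apart. MX1 was at 125, 727 and 225 CPM in control and 4615, 3683 and 4294 CPM with poly I:C, an 11.7-fold rise (log2 fold change 3.55 ± 0.59 SE, edgeR adjusted p = 0.000592). MX2 was at 103, 334 and 130.2 CPM in control and 504, 1389 and 1523 CPM with poly I:C, a 6.02-fold rise (log2 fold change 2.59 ± 0.75 SE, edgeR adjusted p = 0.021). The MX1 libraries with poly I:C lay close together, while the MX2 library of set A stayed well below those of sets B and C. Neither gene's groups overlapped.

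The oligoadenylate synthetases OAS1 and OAS2 make the messenger that activates RNase L when they bind double-stranded RNA, and OASL is a relative that lacks this activity in humans. OAS2 (chromosome 14, 38827667 to 38847697) and OAS1 (38851083 to 38867427) are neighbours, and OASL lies farther along the same chromosome (40900050 to 40917189). OASL was nearly silent in control, at 0.145, 2.16 and 0.771 CPM, and stood at 91.7, 99.3 and 110.0 CPM with poly I:C, a 99.9-fold rise (log2 fold change 6.64 ± 1.04 SE, edgeR adjusted p = 0.000369). Its SD of log2(CPM + 0.5) over the libraries was 1.02 in control and 0.13 with poly I:C, so the poly I:C libraries lay close together. OAS1 was at 84.1, 225 and 162 CPM in control and 1162, 766 and 1152 CPM with poly I:C (log2 fold change 2.71 ± 0.44 SE, edgeR adjusted p = 0.000494). OAS2 was at 143, 349.5 and 154 CPM in control and 1747, 1272 and 1792 CPM with poly I:C (log2 fold change 2.90 ± 0.46 SE, edgeR adjusted p = 0.000436). The lowest poly I:C library of OAS1 and of OAS2 was that of set B, which held their highest control.

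ISG15 (chromosome 6, 63363201 to 63364211) showed the next largest rise after OASL. It was at 60.8, 640.1 and 192 CPM in control and 15369.7, 5867 and 7575 CPM with poly I:C, a 32.3-fold rise (log2 fold change 5.01 ± 0.89 SE, edgeR adjusted p = 0.000961). The control of set A was the lowest and its poly I:C library the highest, so the ratio within set A was 7.97 on the log2 scale, against 3.20 in set B. The ligase HERC5 (chromosome 8, 130532256 to 130591158) was at 43.1, 187 and 77.5 CPM in control and 1457, 1042 and 1496 CPM with poly I:C (log2 fold change 3.70 ± 0.53 SE, edgeR adjusted p = 0.000187). USP18 (chromosome 5, 70183321 to 70227990), which removes ISG15 and also restrains the interferon receptor, was at 100.1, 225 and 64.5 CPM in control and 979.9, 1032 and 567 CPM with poly I:C (log2 fold change 2.73 ± 0.43 SE, edgeR adjusted p = 0.000427). USP18 libraries of set C were the lowest in both groups. UBA7, the ISG15-activating enzyme, had 0, 4 and 0 counts in control and 2, 9 and 30 with poly I:C (edgeR adjusted p = 0.0278); these groups overlapped, and most of its annotated span is shared with TRAIP.

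RSAD2 encodes viperin, which makes a chain-terminating nucleotide, and CMPK2, a mitochondrial nucleotide kinase, supplies its substrate. The genes are neighbours on chromosome 3, 128880853 to 128897809 (RSAD2) and 128903395 to 128917873 (CMPK2), with 5.59 kb between them. RSAD2 was at 54.8, 534 and 199 CPM in control and 3552, 5402 and 10418 CPM with poly I:C, a 24.6-fold rise (log2 fold change 4.62 ± 1.01 SE, edgeR adjusted p = 0.00393). CMPK2 was at 43.9, 161 and 72.9 CPM in control and 605, 689.5 and 754 CPM with poly I:C (log2 fold change 2.88 ± 0.44 SE, edgeR adjusted p = 0.000312). Both genes had their highest control in set B and their highest poly I:C library in set C, and neither gene's groups overlapped.

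The PARP genes encode ADP-ribosyltransferases, and DTX3L is the ubiquitin ligase that pairs with PARP9. PARP9 (chromosome 13, 137960987 to 138000862) and DTX3L (137950266 to 137961381) overlap by 395 bases. The counting is not stated to use strand, so reads there may not have been told apart. PARP14 lies on the same chromosome (137809499 to 137865383). PARP9 was at 33.2, 94.9 and 46.5 CPM in control and 240.2, 293 and 325 CPM with poly I:C (log2 fold change 2.30 ± 0.43 SE, edgeR adjusted p = 0.00137). DTX3L was at 13.0, 38.8 and 21.7 CPM in control and 126, 153 and 137 CPM with poly I:C (log2 fold change 2.50 ± 0.44 SE, edgeR adjusted p = 0.000841). The 2 genes shared their order in control, with set A lowest and set B highest. PARP12 (chromosome 18, 9673841 to 9715169) was at 135, 300.0 and 184 CPM in control and 927, 821 and 973 CPM with poly I:C (log2 fold change 2.14 ± 0.30 SE, edgeR adjusted p = 0.000149). PARP14 was at 61.4, 90.6 and 75.0 CPM in control and 348, 353 and 459 CPM with poly I:C (log2 fold change 2.35 ± 0.40 SE, edgeR adjusted p = 0.000738). Of these 4 genes, none had a control library as high as any poly I:C library.

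Guanylate-binding proteins are GTPases that interferon gamma induces most strongly. GBP2 (chromosome 4, 127387222 to 127408729) and GBP1 (127425699 to 127442132) are neighbours. GBP1 was at 436, 273 and 550.4 CPM in control and 1590.4, 1059 and 1458 CPM with poly I:C (log2 fold change 1.71 ± 0.36 SE, edgeR adjusted p = 0.0029). GBP2 was at 33.2, 27.0 and 45.2 CPM in control and 280.2, 152 and 228 CPM with poly I:C (log2 fold change 2.65 ± 0.44 SE, edgeR adjusted p = 0.000582). In contrast to most members, both GBP genes had their lowest control in set B. Set B also held their lowest poly I:C library, as it did for 21 of 40 members.

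IFITM1 (chromosome 2, 124095 to 125495) and IFITM3 (128658 to 129736) are short neighbouring genes whose products sit in the plasma and endosomal membranes and hinder fusion. IFITM1 was at 42.4, 222 and 86.2 CPM in control and 1021, 647 and 528 CPM with poly I:C (log2 fold change 2.65 ± 0.58 SE, edgeR adjusted p = 0.0042). IFITM3 was at 82.8, 434 and 223 CPM in control and 1663, 902 and 1237 CPM with poly I:C (log2 fold change 2.36 ± 0.55 SE, edgeR adjusted p = 0.00597). Both had their lowest control and their highest poly I:C library in set A. IFITM genes are near-identical relatives in many mammals, so counts could be split between copies.

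The other 18 tested members rose by log2 fold changes of 0.71 to 4.12. Among those that act on nucleic acids, the exonuclease ISG20 rose by 4.05, the helicase DDX60 by 3.93, the dNTP hydrolase SAMHD1 by 4.12, the RNA editor ADAR by 2.05 and the RNA-binding zinc-finger protein ZC3HAV1 by 1.67 on the log2 scale. SLFN11, which cleaves tRNA in humans, rose by 3.24, and the tetherin gene BST2 by 2.14. IFI6 rose by 2.60, IFI44 by 2.25, IFI44L by 2.64, RTP4 by 2.62, EPSTI1 by 2.76 and TDRD7 by 1.80. The partners NMI and IFI35 rose by 2.14 and 1.53, and the nuclear body protein SP110 by 1.81. The smallest changes belonged to PLSCR1, a phospholipid scramblase at 287, 285 and 296 CPM in control and 547, 416 and 457 CPM with poly I:C (edgeR adjusted p = 0.0313), and to LAP3, an aminopeptidase at 132, 129 and 175 CPM in control and 324, 190.4 and 356 CPM with poly I:C (edgeR adjusted p = 0.0445). The groups of both genes still did not overlap.

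**Figure D2:**
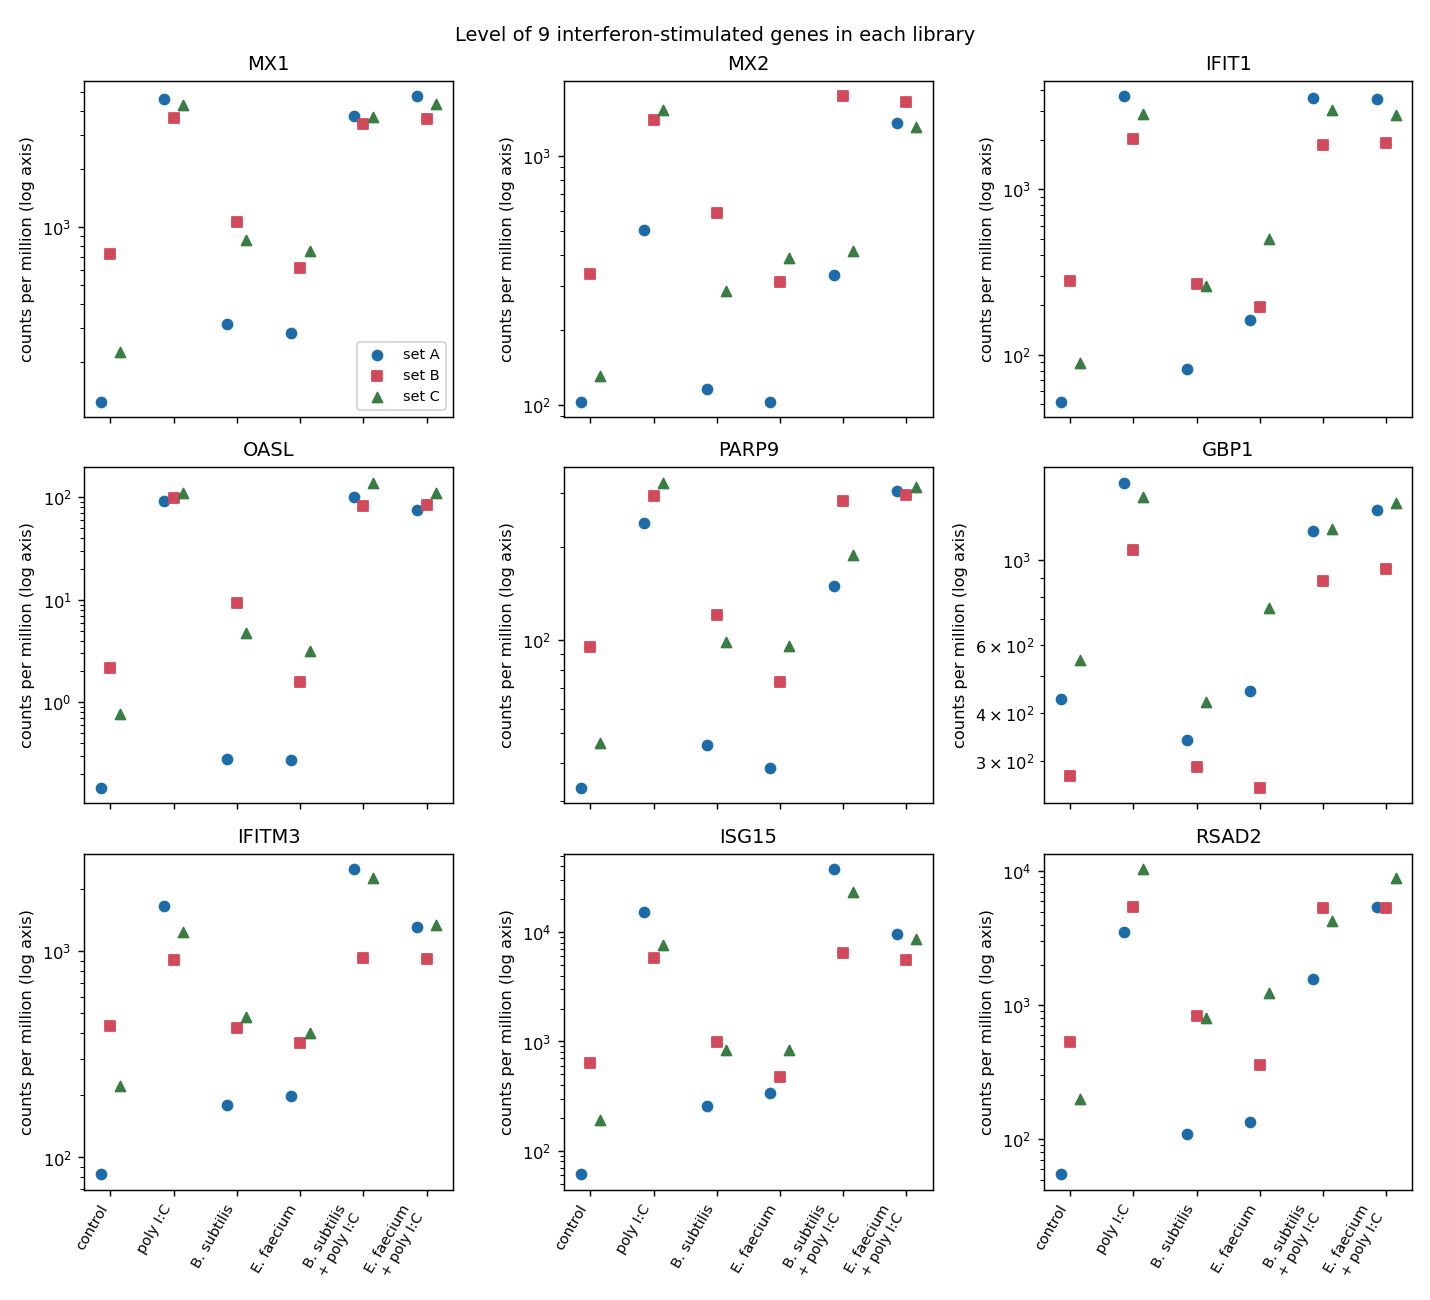
CPM (log axis) of 9 genes in each of the 18 libraries, by treatment; symbols mark sets A, B and C. In control the set B symbol is the highest for 8 of these genes and the lowest for GBP1, and with poly I:C alone no symbol falls to the control range of its gene.

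The members' resting level differed between the control libraries. The control of set B was the highest for 34 of 40 members (38.2% of all tested genes), and the control of set A the lowest for 34 (32% of all tested genes). With poly I:C, set B was the highest for 3 members. The median log2 ratio of poly I:C to control was 3.43 in set A, 1.95 in set B and 2.77 in set C, and all 40 members were higher in each set (30.4% of all tested genes were higher in all 3). The median SD of log2(CPM + 0.5) over the 3 libraries was 0.736 in control and 0.326 with poly I:C over the members, against 0.248 and 0.369 over all tested genes. From control to poly I:C the SD was smaller for 29 of 40 members and for 32.0% of all tested genes; with poly I:C plus E. faecium it was smaller for 31 members, against 42.5% of all tested genes. The median SD was also high with either bacterium alone, at 0.679 for B. subtilis and 0.677 for E. faecium, and lower in both combinations, at 0.396 with B. subtilis and 0.257 with E. faecium. Over all tested genes it was 0.268, 0.310, 0.472 and 0.285 in the same order. With poly I:C plus B. subtilis the SD was below that of control for 26 members (25.8% of all tested genes). With B. subtilis alone it was for 20 members (45.8%) and with E. faecium alone for 23 (38.5%). These are descriptions over 3 libraries each, with no test.

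**Figure D3:**
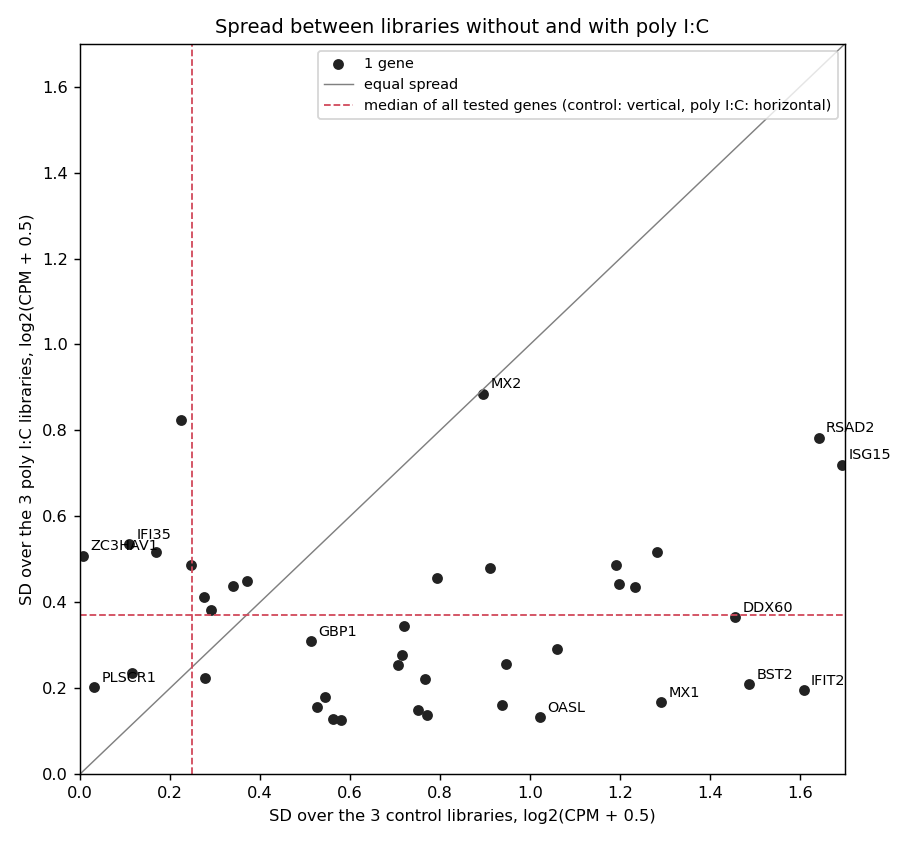
SD over the 3 control libraries (horizontal axis) against the SD over the 3 poly I:C libraries (vertical axis), in log2(CPM + 0.5), 1 point per tested member; dashed lines are the medians of all tested genes, 0.248 and 0.369. Of the 40 points, 29 lie below the line of equal spread.

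B. subtilis alone raised no member past the threshold (edgeR, 0 of 40, against 4.44% of all tested genes in either direction). Of the 40, 12 had an unadjusted p under 0.05 (17.1% of all tested genes), DESeq2 called 2 (EPSTI1 and SAMHD1, against 8.66% of all genes with an adjusted p), and 36 had a log2 fold change above 0 (48.5% of all tested genes), with a median of 0.80 against -0.02 over all genes. With the library set as a block, 7 members rose, namely OASL, EPSTI1, USP18, CMPK2, SAMHD1, ADAR and ZC3HAV1, and 0 fell. In that fit 9.12% of all tested genes rose and 18.4% passed in either direction. That block was chosen from these same libraries, so its p-values may be too low. Without the control library of set B, 3 rose (1.98% of all tested genes): CMPK2, EPSTI1 and MX1. The summed level of the neutrophil list was 707 to 1320 CPM in control and 2236 to 3168 CPM with B. subtilis, and that of the epithelial list 29.0 to 153 and 132 to 391 CPM; the part of these markers in the members' values was not tested. Within the sets, 30 of 40 members were above the control of every set (25.9% of all tested genes), and the median log2 ratio was 0.66 in set A, 0.43 in set B and 1.16 in set C. Separation was rarer: the libraries of 5 members, EPSTI1, IFI35, NMI, SAMHD1 and ZC3HAV1, lay above all 3 controls, against 13% of all tested genes, and those of LAP3 lay below them, against 14.3%.

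E. faecium alone also raised no member (edgeR, 0 of 40 and 0% of all tested genes; 1 member, SLFN11, had an unadjusted p under 0.05, against 2.05% of all tested genes; DESeq2 called 0 members). DESeq2 called 4.03% of all genes with an adjusted p in this comparison. All 40 log2 fold changes were above 0 (49.8% of all tested genes), with a median of 0.49, yet the 3 sets disagreed. The median log2 ratio to control was 0.56 in set A, -0.26 in set B and 1.10 in set C, and 40 of 40 members were above control in set C (48.1% of all tested genes) but 4 of 40 in set B (47.7%). TNF, an NF-kB target outside the list, showed the same order, at 18.8, 19.0 and 23.3 CPM in control and 356, 26.0 and 1972 CPM with E. faecium. IFNB1, the interferon beta gene, was at 0, 0.270 and 0.0309 CPM in control and 0.600, 0.220 and 3.64 CPM with E. faecium. The E. faecium library of set B thus stood near its control for these genes too.

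**Figure D4:**
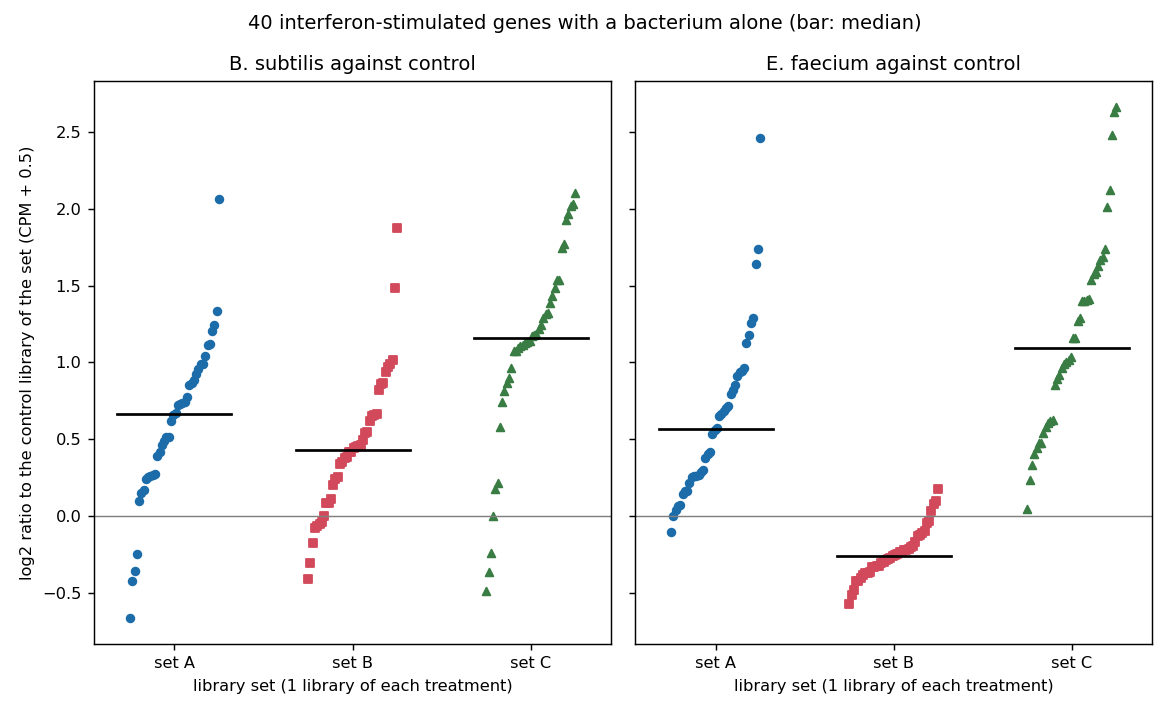
log2 ratio of the library with a bacterium alone to the control library of its set, 1 symbol per tested member, with the median as a bar; left B. subtilis, right E. faecium. All 3 medians are above 0 for B. subtilis (0.66, 0.43 and 1.16), while for E. faecium the median of set B is -0.26.

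By family, the median log2 fold change with B. subtilis was 0.93 for MX, 0.93 for OAS, 0.61 for PARP, 0.60 for IFIT, 0.45 for IFITM and -0.05 for GBP, none of whose genes passed. MX1 was at 316, 1062 and 858 CPM with B. subtilis and 283, 611 and 752 CPM with E. faecium. MX2 was at 116, 590.5 and 286 CPM with B. subtilis and 103, 309.8 and 389 CPM with E. faecium. Set A held the lowest library of both genes under each bacterium. IFIT1 was at 81.9, 267 and 260.2 CPM with B. subtilis and 162, 195 and 502 CPM with E. faecium. IFIT2 was at 50.4, 414 and 249.7 CPM with B. subtilis and 93.8, 203 and 547 CPM with E. faecium. IFIT3 was at 197, 499 and 501 CPM with B. subtilis and 327, 301 and 811 CPM with E. faecium. The E. faecium library of set C was the highest of the bacterium-only libraries for all 3 IFIT genes, and E. faecium gave IFIT the highest family median, 1.03. OAS1 was at 167, 293 and 384 CPM with B. subtilis and 149, 194 and 316 CPM with E. faecium. OAS2 was at 191, 635 and 403 CPM with B. subtilis and 172, 396 and 409.5 CPM with E. faecium. OASL was at 0.279, 9.27 and 4.70 CPM with B. subtilis and 0.273, 1.57 and 3.19 CPM with E. faecium. OASL had the largest log2 fold change with B. subtilis (log2 fold change 2.25 ± 0.90 SE, edgeR adjusted p = 0.196; 0.0485 with the set block), at levels far below those with poly I:C in every library.

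In the ISG15 system, ISG15 was at 255, 981 and 829 CPM with B. subtilis and 336, 477 and 838 CPM with E. faecium. HERC5 was at 100.3, 249.7 and 261 CPM with B. subtilis and 81.5, 157 and 205 CPM with E. faecium. USP18 was at 190.2, 327 and 174 CPM with B. subtilis and 174, 178 and 172 CPM with E. faecium. All 9 B. subtilis libraries of these 3 genes lay above the control of their set, and the E. faecium libraries of set B lay below it. UBA7 had 1, 4 and 0 counts with B. subtilis and 2, 2 and 5 with E. faecium, close to its control. RSAD2 was at 109, 838 and 805 CPM with B. subtilis and 134, 359.8 and 1231 CPM with E. faecium. CMPK2 was at 95.7, 219.6 and 205 CPM with B. subtilis and 96.4, 131 and 219.9 CPM with E. faecium. Both genes stood above the set's control in sets A and C under either bacterium, without passing the test.

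No PARP, GBP or IFITM gene passed with a bacterium alone. PARP9 was at 45.9, 121 and 98.5 CPM with B. subtilis and 38.5, 73.2 and 95.8 CPM with E. faecium. PARP12 was at 192, 345 and 343 CPM with B. subtilis and 180.3, 254 and 282 CPM with E. faecium. PARP14 was at 80.9, 166 and 164 CPM with B. subtilis and 73.4, 88.7 and 239 CPM with E. faecium. For the PARP genes, the set A libraries with a bacterium were again the lowest. DTX3L was at 18.8, 50.8 and 48.5 CPM with B. subtilis and 19.6, 29.6 and 58.1 CPM with E. faecium. GBP1 was at 340.5, 289.8 and 427 CPM with B. subtilis and 457, 255 and 748 CPM with E. faecium. GBP2 was at 28.0, 37.1 and 52.5 CPM with B. subtilis and 37.2, 21.3 and 63.0 CPM with E. faecium. With B. subtilis, GBP1 was below its control in sets A and C and GBP2 in set A. IFITM1 was at 73.1, 179.8 and 195 CPM with B. subtilis and 81.8, 168 and 163 CPM with E. faecium. IFITM3 was at 181, 422 and 482 CPM with B. subtilis and 198, 358 and 403 CPM with E. faecium. Both IFITM genes with B. subtilis were above control in sets A and C and below it in set B.

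Adding a bacterium to poly I:C changed no member past the threshold. For E. faecium with poly I:C against poly I:C, edgeR and DESeq2 called 0 of 40 members and edgeR 0% of all tested genes, 0 members had an unadjusted p under 0.05 (0.28% of all tested genes), and the median log2 fold change was -0.04. For B. subtilis with poly I:C against poly I:C, edgeR called 0 of 40 and 0% of all tested genes, DESeq2 0 members, and the median was -0.13; IFI35 and TDRD7 had an unadjusted p under 0.05 (10.5% of all tested genes). Of all genes with an adjusted p, DESeq2 called 0.433% when B. subtilis was added to poly I:C and 0% when E. faecium was. IFI35 was at 274, 133 and 163 CPM with poly I:C and 554, 126 and 387 CPM with B. subtilis added, with a log2 fold change of 0.91 (95% interval 0.05 to 1.76, edgeR adjusted p = 0.451). The intervals of many members are wide: for ISG15 it ran from -0.39 to 2.86.

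The B. subtilis combination split by set. In sets A and C, 12 members were above their poly I:C library in both, 23 were below it in both and 5 lay on opposite sides, against 34.8%, 41.6% and 22.6% of all tested genes. The 12 were ISG15, ISG20, IFIT3, OAS1, OASL, IFI35, NMI, IFI6, BST2, DTX3L, IFITM1 and IFITM3, and the 23 included MX1, MX2, IFIT2, OAS2, RSAD2, IFI44, the 3 PARP genes, SAMHD1 and ADAR. ISG15 had log2 ratios to poly I:C of 1.31, 0.13 and 1.64 in sets A, B and C. Those of IFI6 were 1.16, 0.18 and 1.38, and those of IFITM1 were 0.89, -0.25 and 1.13. Among the genes below poly I:C, RSAD2 had -1.18, -0.03 and -1.30, IFI44 had -1.40, -0.03 and -1.22 and MX2 had -0.60, 0.32 and -1.87. In set B these 6 genes lay between -0.25 and 0.32. Without the combined library of set B, 2 members passed against poly I:C, IFI35 higher and IFI44 lower, while 15.5% of all tested genes passed in that fit. Across the 40 members the ratios of set A and set C had a Pearson r of 0.90 and those of sets A and B of 0.04; across all 13592 tested genes, which are not independent, r was 0.69 and 0.06. The split was thus shared with the other genes. The set A and C libraries of this treatment had the lowest TMM factors of the series (0.664 and 0.719, against 0.863 in set B), with 17.1% and 16.2% of their counts in the 10 most abundant genes (12.8% in set B). The median genomic span was 10692.5 bases for the 12 members and 33282 for the 23, and across members the Spearman rho of the ratio with the span was -0.51 in set A, 0.15 in set B and -0.42 in set C (-0.29, 0.12 and -0.37 across all genes with a span). The part of library composition in the split was not tested.

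**Figure D5:**
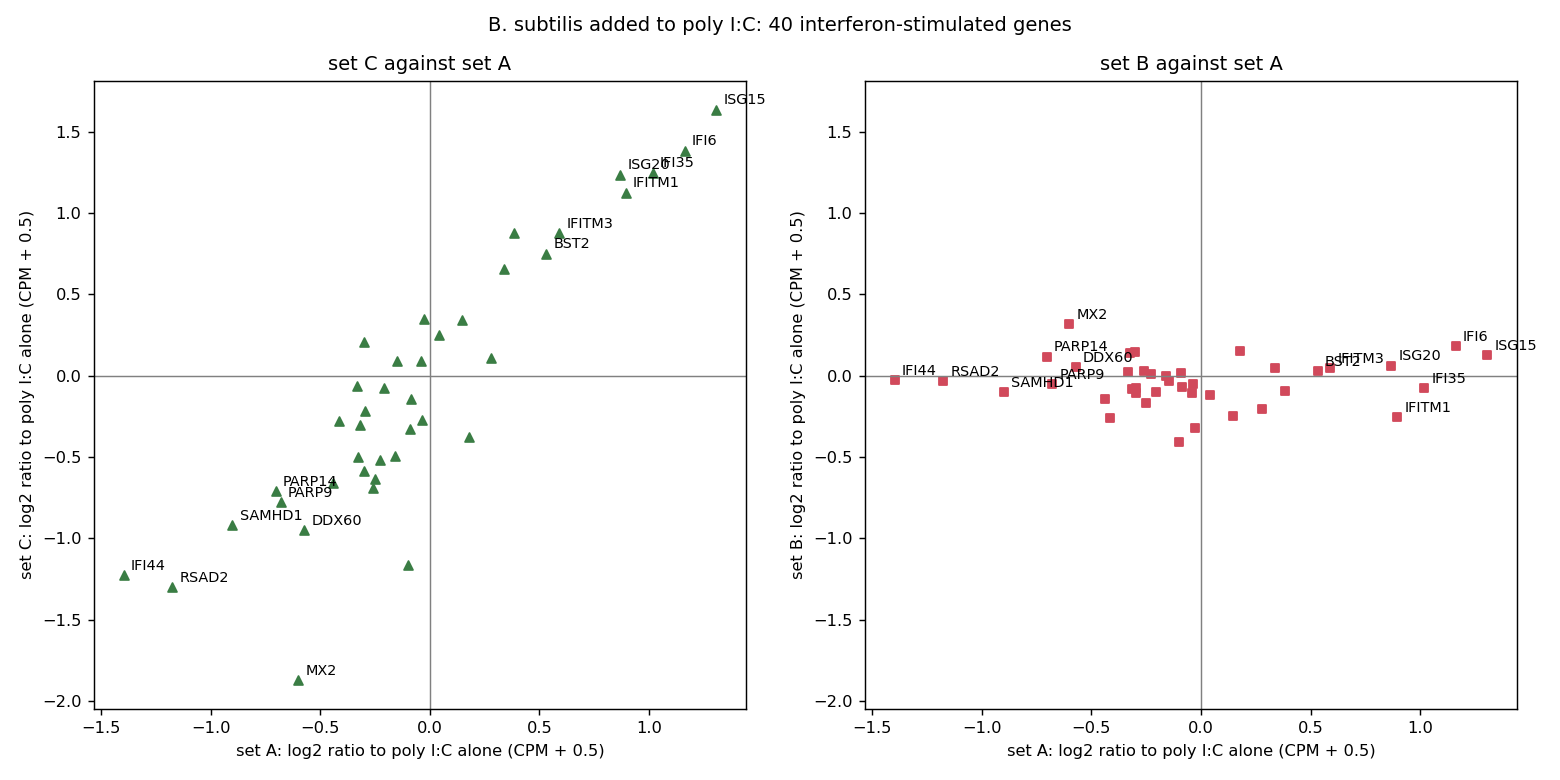
log2 ratio of the B. subtilis and poly I:C library to the poly I:C library of the same set for the 40 tested members, set A on both horizontal axes, set C (left) and set B (right) on the vertical axes. The left points follow the diagonal from RSAD2 and IFI44 to ISG15, while the right points lie in a flat band.

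ISG15, RSAD2 and MX2 show the split at the level of single libraries. Log2 ratios to poly I:C in sets A, B and C stayed small for HERC5 (-0.09, -0.07 and -0.14). For USP18 they were -0.33, 0.02 and -0.07, and for MX1 -0.30, -0.10 and -0.22. ISG15 was at 38015, 6410.4 and 23545 CPM with poly I:C plus B. subtilis and 9693, 5611 and 8699.8 CPM with poly I:C plus E. faecium. HERC5 was at 1371, 992 and 1357 CPM with poly I:C plus B. subtilis and 1595, 998 and 1500.1 CPM with poly I:C plus E. faecium. USP18 was at 778, 1047 and 542 CPM with poly I:C plus B. subtilis and 935, 947 and 562 CPM with poly I:C plus E. faecium. The ISG15 libraries of sets A and C with poly I:C plus B. subtilis were the highest of all 18, while HERC5 and USP18 lay near their poly I:C levels. UBA7 had 1, 5 and 5 counts with poly I:C plus B. subtilis and 13, 16 and 22 with poly I:C plus E. faecium. RSAD2 was at 1572, 5282 and 4227 CPM with poly I:C plus B. subtilis and 5389, 5344 and 8962 CPM with poly I:C plus E. faecium. CMPK2 was at 485, 652 and 609.9 CPM with poly I:C plus B. subtilis and 668, 658 and 711 CPM with poly I:C plus E. faecium. For RSAD2, the set A library with B. subtilis was the lowest of the 9 libraries with poly I:C. MX1 was at 3759, 3427 and 3695 CPM with poly I:C plus B. subtilis and 4741, 3617 and 4330.3 CPM with poly I:C plus E. faecium. MX2 was at 332, 1730.0 and 416 CPM with poly I:C plus B. subtilis and 1355, 1642 and 1297 CPM with poly I:C plus E. faecium. MX2 overlapped the controls' range when B. subtilis was added, in set A, and not with E. faecium.

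Among the RNA-binding and membrane families, no gene passed against poly I:C. IFIT1 was at 3559.7, 1860.2 and 3039 CPM with poly I:C plus B. subtilis and 3511, 1908 and 2831 CPM with poly I:C plus E. faecium. IFIT2 was at 2089, 2646 and 1989.5 CPM with poly I:C plus B. subtilis and 3648, 2433 and 3121 CPM with poly I:C plus E. faecium. IFIT3 was at 4739.9, 3017 and 4279.6 CPM with poly I:C plus B. subtilis and 4198, 3020.5 and 3560.2 CPM with poly I:C plus E. faecium. IFIT1 and IFIT3 were highest in set A and lowest in set B in both combinations, as they were with poly I:C alone. OAS1 was at 1468, 790.1 and 1817 CPM with poly I:C plus B. subtilis and 887, 719 and 1199 CPM with poly I:C plus E. faecium. OAS2 was at 1469, 1130.5 and 1154 CPM with poly I:C plus B. subtilis and 1870.2, 1236 and 1604 CPM with poly I:C plus E. faecium. OASL was at 101, 83.4 and 139.6 CPM with poly I:C plus B. subtilis and 76.2, 85.0 and 110.1 CPM with poly I:C plus E. faecium. OAS1 and OASL were highest in set C with B. subtilis, and OAS2 was not. PARP9 was at 149.7, 282 and 189 CPM with poly I:C plus B. subtilis and 305, 297 and 314 CPM with poly I:C plus E. faecium. PARP12 was at 869.6, 832 and 776 CPM with poly I:C plus B. subtilis and 1026, 802 and 933 CPM with poly I:C plus E. faecium. PARP14 was at 214, 383 and 281 CPM with poly I:C plus B. subtilis and 439, 357 and 427 CPM with poly I:C plus E. faecium. PARP9 and PARP14 were lowest in set A with B. subtilis among the libraries with poly I:C. DTX3L was at 153, 132 and 147 CPM with poly I:C plus B. subtilis and 117, 137 and 127 CPM with poly I:C plus E. faecium. In sets A and C, DTX3L was above and its neighbour PARP9 below the poly I:C library. GBP1 was at 1192, 883 and 1202 CPM with poly I:C plus B. subtilis and 1349.5, 949.7 and 1411 CPM with poly I:C plus E. faecium. GBP2 was at 275, 121 and 289.9 CPM with poly I:C plus B. subtilis and 217, 123 and 246 CPM with poly I:C plus E. faecium. IFITM1 was at 1898, 542 and 1153 CPM with poly I:C plus B. subtilis and 615, 579 and 656 CPM with poly I:C plus E. faecium. The IFITM1 libraries with B. subtilis were the highest of the series in sets A and C. IFITM3 was at 2503, 931 and 2268 CPM with poly I:C plus B. subtilis and 1314, 917 and 1332 CPM with poly I:C plus E. faecium.

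Against control, 38 of 40 members rose with poly I:C plus B. subtilis, all but PLSCR1 and UBA7 (19% of all tested genes rose), and the median log2 fold change of all 40 was 2.60. Those that rose ran from 0.97 for LAP3 to 6.75 for OASL. With poly I:C plus E. faecium, 39 rose, all but LAP3 (13.3% of all tested genes), the median of all 40 was 2.58, and those that rose ran from 0.81 for PLSCR1 to 6.49 for OASL. The 39 include UBA7, which passed the count filter only through libraries with poly I:C. These comparisons share the control libraries with poly I:C against control. Against the same bacterium alone, 31 members rose with poly I:C plus B. subtilis (11.1% of all tested genes), the median of all 40 was 1.82, and those that rose ran from 1.09 for SP110 to 5.04 for ISG15. With E. faecium the count was 36 (9.49%), the median of all 40 was 2.21, and those that rose ran from 0.74 for PLSCR1 to 5.74 for OASL. SP110 was at 30.9, 49.1 and 54.4 CPM with B. subtilis and 73.5, 108 and 106 CPM with poly I:C added. PLSCR1 was at 318, 244 and 348 CPM with E. faecium and 647, 431 and 443 CPM with poly I:C added. Neither gene's groups overlapped. The share of all tested genes with that pattern in these comparisons is not given here, so nothing is read from it. The 9 that did not pass against B. subtilis were MX2, RSAD2, IFI44, PARP9, PARP14, PLSCR1, UBA7, ADAR and ZC3HAV1; the 4 against E. faecium were IFI35, BST2, UBA7 and LAP3. A fit with only the treatments compared called 12 members for B. subtilis with poly I:C against B. subtilis, all higher (1.58% of all tested genes).

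The 2 bacteria did not differ for any member past the threshold. For B. subtilis against E. faecium, edgeR and DESeq2 called 0 members (edgeR 0.177% of all tested genes, 0 members and 8.59% of all tested genes with an unadjusted p under 0.05), and the median log2 fold change was 0.24. In set B, 39 of 40 members were higher with B. subtilis (48.4% of all tested genes), against 24 in set A (47.9%) and 22 in set C (50.3%). Between the 2 combinations edgeR called 0 members (0% of all tested genes; 2 members and 16.5% with an unadjusted p under 0.05; DESeq2 0), with a median of -0.12, and with the set block 1 member, IFI35, was higher with B. subtilis (edgeR adjusted p = 0.0465), as were 5.91% of all tested genes. The interaction, which asks whether the effect of a bacterium depends on poly I:C, passed for 0 members with either bacterium (0.0368% of all tested genes for B. subtilis, 0% for E. faecium; 5 and 0 members, against 8.95% and 0.699% of all tested genes, with an unadjusted p under 0.05; DESeq2 0 and 0). For B. subtilis its median over members was -0.83, and with the set block it passed for SAMHD1 (-1.79 on the log2 scale without the block, edgeR adjusted p = 0.343; 0.0344 with it) and ADAR (-1.16, edgeR adjusted p = 0.533; 0.0444 with it), while 3.83% of all tested genes passed with that block. SAMHD1 was at 29.0, 40.8 and 40.1 CPM in control, 44.7, 115 and 87.3 with B. subtilis, 496, 563 and 856 with poly I:C and 265, 524 and 452 with both. Its B. subtilis libraries were above, and its combined libraries below, the matching library without the bacterium in every set. Of all genes with an adjusted p, DESeq2 called 2.21% between the bacteria and 6.36% between the combinations. For the interactions of B. subtilis and of E. faecium with poly I:C, DESeq2 called 0.883% and 0%.

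The genes upstream of the members were counted from lists of the pathway. With poly I:C, 5 of 9 tested interferon and receptor genes rose, 10 of 12 JAK, STAT and IRF genes, 11 of 14 sensors and adaptors of double-stranded RNA, and 11 of 12 NF-kB inflammatory genes. Of 7 brakes on interferon signalling, SOCS1, SOCS3 and PIAS1 rose and PTPN6 fell. Of all tested genes, 12.9% rose with poly I:C and 22.5% passed in either direction. With B. subtilis alone, 12 of 12 NF-kB genes rose. So did 1 of 9 (IFNLR1), 2 of 12 (STAT2 and IRF8) and 2 of 14 (TICAM1 and IKBKE) of the first lists, together with SOCS1 and SOCS3. Of all tested genes, 4.44% passed with B. subtilis in either direction. With E. faecium alone, 0 genes of these lists passed, and 0% of all tested genes did. IFNB1 was at 6.98, 30.8 and 9.20 CPM with poly I:C, 0.112, 0.781 and 0.418 CPM with B. subtilis and 31.2, 48.5 and 37.9 CPM with both. It was higher with both than with poly I:C in each set, without passing the test (log2 fold change 1.32 ± 0.83 SE, edgeR adjusted p = 0.591). STAT2, which is part of the interferon transcription complex, was at 275, 295 and 304 CPM in control, 704, 855 and 1052 CPM with B. subtilis and 1459, 1459 and 1938 CPM with poly I:C, and rose in both (log2 fold change 1.58 ± 0.30 SE, edgeR adjusted p = 0.00788 with B. subtilis). IRF9, of the same complex, was at 103, 104 and 92.7 CPM in control, 120.4, 145 and 139 CPM with B. subtilis and 267, 223 and 234 CPM with poly I:C. IRF7, a factor that amplifies interferon production, was at 66.6, 195 and 101 CPM in control, 112, 297 and 280.0 CPM with B. subtilis and 1782, 915 and 1242 CPM with poly I:C, and had its highest control in set B, as most members did.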

How the data were processed

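RNA-seq counts were available for 18 libraries of porcine alveolar macrophages, 3 per treatment. The submitters' processing notes name DESeq2 and the build Sscrofa11.1. The counts deposited by the authors are whole numbers per gene with no normalization. Aligner, counting tool and strand setting: not given in the sources used here. In all, 351 rows had no gene name, took 0.515% to 1.04% of a library's counts and were left out. Library totals of 16.3 to 27.3, in units of 1000000 counts, set the counting precision. Gene positions are those of RefSeq for Sscrofa11.1, which matched all 42 members by gene ID. No sequences were used here.

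Genes passing filterByExpr (minimum count 10) were tested with edgeR 4.0.16 (R 4.3.3) by the quasi-likelihood test on TMM-scaled counts, with 1 mean per treatment and all 6 treatments in 1 fit, and p-values were adjusted by Benjamini and Hochberg over all 13592 tested genes, with a threshold of 0.05. There were 13 comparisons, 2 of them interactions. CPM are counts per 1000000 counts of the TMM-scaled total, and log2 ratios within a set use CPM + 0.5. The procedure was tested on simulated data. The alternatives were the size factors and Wald test of DESeq2 1.42.0, no low-count filter, only the compared treatments, blocks for pig number or library set, and leaving out each library; scaling by library totals alone was added after seeing the data. Members and gene lists were chosen with earlier results of these data known. The named genes are the members of the MX, IFIT, OAS, PARP, GBP and IFITM families with DTX3L, the ISG15 system, RSAD2, CMPK2 and the highest and lowest passing member of a comparison; other genes are named as further examples. Deviations from the treatment means of same-numbered libraries had correlations of -0.60 to 0.85 (45 pairs, median -0.22), against 0.41 to 0.87 within the library sets, so the numbers do not pair the libraries. Whether the libraries of a treatment come from separate animals rests on the pig numbers alone, and p-values measure the spread between these libraries.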

Additional observations from a re-analysis of the deposited data

Results flagged for a closer look

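For 11 of 40 members, against 2.93% of all tested genes, the level with B. subtilis was above control in every library set and the level with B. subtilis and poly I:C was below poly I:C alone in every set. The opposite pattern held for 0 members and 2.73% of all tested genes. Being above control in every set with B. subtilis held by itself for 30 of 40 members and 25.9% of all tested genes. Whether the parts of the first pattern were linked was not tested. The 11 members were picked by the first pattern in these same libraries. That pattern implies a negative interaction term, so the sign of the term is no separate test of it. The term had log2 values of -1.26 for MX1, -1.29 for OAS2, -1.96 for RSAD2, -0.97 for EPSTI1, -1.02 for SLFN11, -1.09 for HERC5, -1.14 for CMPK2, -1.42 for IFI44, -1.07 for PARP9, -0.98 for RTP4 and -1.79 for SAMHD1. None passed the threshold (edgeR adjusted p of 0.343 to 0.674), and with the library set as a block, where 3.83% of all tested genes passed, SAMHD1 did. The direction in set B was small for several of them: RSAD2 had a log2 ratio of B. subtilis with poly I:C to poly I:C of -0.03 and IFI44 of -0.03 there, against -1.18 and -1.40 in set A.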

How the results depend on the processing

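The number of members called with poly I:C against control stayed within 1.5 times of the main count in every alternative run. Leaving out each library in turn gave 34 to 39 members for poly I:C against control (14.9% to 18.8% of all tested genes in either direction). Against control it gave 35 to 38 for B. subtilis with poly I:C (25.8% to 45.4%) and 34 to 39 for E. faecium with poly I:C (15.8% to 20.3%). For the combinations against the same bacterium alone it gave 24 to 31 with B. subtilis (8.51% to 35.8%) and 27 to 36 with E. faecium (8.99% to 14.5%). It gave 0 to 3 for B. subtilis against control (3.38% of all tested genes passed where 3 members did). For B. subtilis with poly I:C against poly I:C it gave 0 to 2 (2 without pig 2 of the combination, with 15.5% of all tested genes). Between the combinations it gave 0 to 3 (3 without the same library, with 24.5%). Every other comparison gave 0 members, with at most 3.83% of all tested genes. For B. subtilis against control, DESeq2 called 2 (8.66% of all genes with an adjusted p), the fit with only the compared treatments 1 (NMI, 5.30%) and the library-set block 7 (18.4%). The set block also called 1 member between the combinations (8.51% of all tested genes) and 2 for the B. subtilis interaction (3.83%). The fit with only the compared treatments called 12 for B. subtilis with poly I:C against B. subtilis (1.96% of all tested genes in either direction), where all treatments together called 31 (18.9%). With the pig number as a replicate block, the counts were 38 for poly I:C (21.5% of all tested genes in either direction) and 38 and 39 for the combinations over control (34.8% and 22.0%). They were 32 and 37 over the single bacterium (17.0% and 14.4%) and 0 elsewhere (at most 3.80%). The numbers do not pair the libraries. Scaling by library totals alone, chosen after seeing the data, put the all-gene median at -0.54 (poly I:C), -0.82 and -0.57 (combinations with B. subtilis and E. faecium), -0.33 (B. subtilis) and -0.11 (E. faecium) against control. In the first 3 of these, 36, 31 and 36 members passed, with 35.2%, 52.3% and 37.2% of all tested genes in either direction. For poly I:C plus B. subtilis against poly I:C it turned the OAS family median from 0.11 to -0.19, and the IFIT median was -0.01, 0.03 with the DESeq2 size factors and -0.31 with totals alone. No result reversed among called members. The cause of these shifts was not tested. Counting error is large for UBA7 and HELZ2, with at most 30 and 3 counts per library. Why so few reads were assigned to them, and none to XAF1, was not tested.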
